A study of Chlamydomonas reinhardtii with 9 samples.

Results

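RNA sequencing was used to ask how the transcripts of wild-type Chlamydomonas reinhardtii, strain CPCC11, respond within 2 h to methylmercury (MeHg) at 0.5 nM. Chlamydomonas is a unicellular green alga that swims with cilia and photosynthesises in a single large chloroplast. The comparison sets 3 libraries from cultures given 0.5 nM MeHg against 3 control libraries from cultures of the same strain without added MeHg, all kept for 2 h in artificial freshwater medium. These are 6 of the 9 libraries of the series, taken by their labelled treatment, and the series describes them as biological replicates. Whether each came from a culture of its own is not stated, so p-values rest on the spread between libraries, which may not be that between cultures. The 3 libraries of a lower dose, 0.05 nM, entered the filter for genes with enough reads, the scaling of libraries and the model for the spread between replicates. The change itself was taken between 0.5 nM and control. Of 17737 gene identifiers in the count files, 14778 had enough reads to be tested.

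Methylmercury is an organic form of mercury that enters cells readily and binds the thiol groups of proteins and of glutathione. Algal cells meet such stress with chaperones that refold proteins, with thiol-based and enzymatic antioxidants and with metal transporters. The same cells adjust photosynthesis to carbon and light through the carbon concentrating mechanism, which pumps bicarbonate toward Rubisco, and through antenna-related proteins that discard excess light energy as heat. Neither the count files nor the gene table used here pairs identifiers with gene names. Pathways are therefore described through lists of locus numbers recalled from the version 5 numbering, which no table used here could check, and no single identifier is given a name or a role. Of 141 recalled numbers in 17 lists, 123 were present in the files and 119 were tested. The lists were chosen with earlier results of these data known, so their counts and medians describe them and no list was tested.

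Depth was similar in both groups, with 20433375, 17723144 and 15138888 reads assigned to genes in 0.5 nM replicates 1 to 3, against 20371000, 15184307 and 16833224 in control replicates 1 to 3. Alignments at more than one place, which are not assigned to genes, came to 20.8% to 23.0% of the assigned count in the 0.5 nM libraries and to 24.2% to 43.7% in the controls, with the highest value in control replicate 3. The part of this difference in the results below was not tested. The count of calls without that library is given below.

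The response reached most of the transcriptome in both directions. By the quasi-likelihood test of edgeR, adjusted over all genes by the Benjamini-Hochberg method, 4671 genes were higher at 0.5 nM (31.6% of those tested) and 4234 were lower (28.7%), at an adjusted p under 0.05. A log2 change of 1 is a doubling, and 1881 genes rose (12.7%) and 1507 fell (10.2%) by that much or more. Most changes were moderate. The median called rise was 0.87 on the log2 scale, with a median standard error of 0.17, and the median called fall was -0.80, with a median standard error of 0.13. Rises reached further than falls: 253 genes rose and 70 fell by at least 2, and 30 rose and 6 fell by at least 3. The values of the groups did not overlap in 63.2% of the genes tested. Without control replicate 3, 4206 genes were higher and 4043 lower.

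The genes that rose were mostly sparsely transcribed and the genes that fell were mostly abundant. Levels are given as CPM, the reads of a gene scaled to the size of its library. Genes were divided into 5 equal classes by their mean log2 CPM over all 9 libraries. The class limits are that mean turned back to CPM, not plain mean CPM. In class 1, the least read, up to 3.32 CPM, 47.5% of genes rose and 7.44% fell, with a median log2 change of 0.69. In class 2, 48.7% rose and 11.7% fell. In class 3, from 8.15 to 18.6 CPM, 34.1% rose and 24.1% fell. In class 4, 18.6% rose and 44.6% fell, with a median of -0.21. In class 5, the most read, from 47.8 CPM upward, 9.07% rose and 55.5% fell, with a median log2 change of -0.38. The low-count filter keeps a gene read in 1 group alone, so class 1 can hold genes that were kept for being high there. With a minimum mean of 5 CPM, 956 genes rose and 1050 fell by at least 1 on the log2 scale, among 10703 tested.

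**Figure D1:**
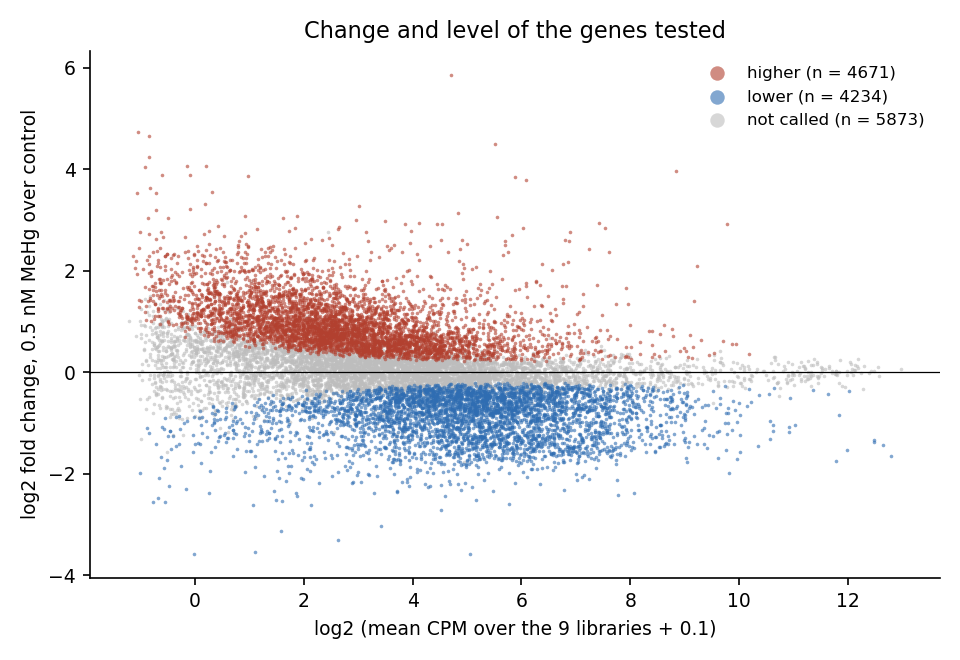
Each point is 1 of the 14778 genes tested, placed by its mean level over the 9 libraries in CPM (log2 scale) and by its log2 fold change at 0.5 nM MeHg over control. The 4671 genes called higher crowd toward low levels and the 4234 called lower toward high levels.

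**Figure D2:**
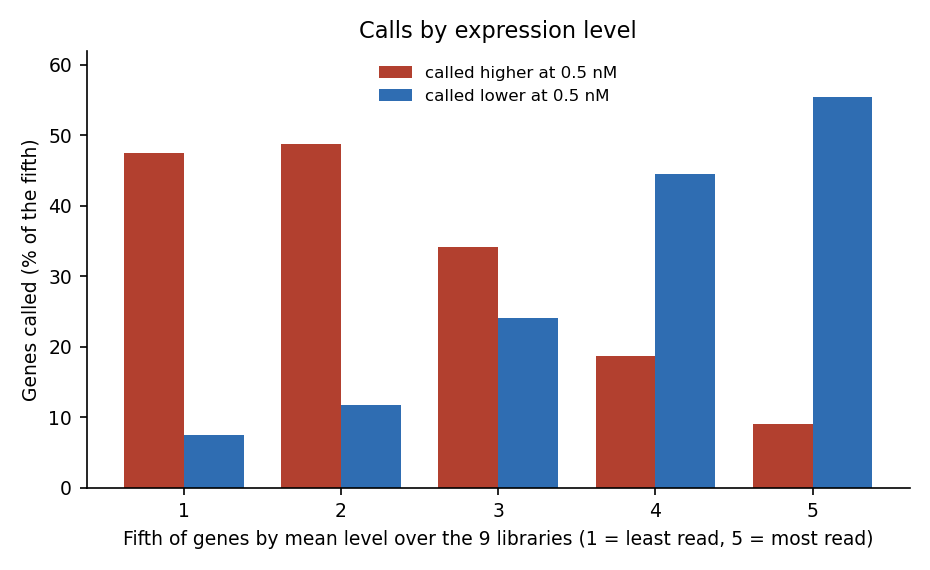
Bars give the share of genes called higher and called lower at 0.5 nM in each of 5 equal classes of the genes tested, ordered from the least to the most read. The share called higher is 47.5% in the least read class and 9.07% in the most read, while the share called lower is 7.44% and 55.5%.

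This pattern depends in part on how libraries are scaled. The values above use TMM, a scaling that corrects for changes in composition. With library totals alone the median gene moved up by 0.29, and 6707 genes were higher and 2557 lower, so that 72.4% of calls were rises in place of 52.5%. Class 4 then had a median of 0.09 in place of -0.21, with 32.7% of its genes higher and 26.8% lower, and class 5 had a median of -0.09, with 22.8% higher and 35.9% lower. The order of the class medians was the same under TMM and library totals, and directions below are on the TMM scale unless stated. The balance of calls also turned the other way under other settings. With RLE scaling 4330 genes were higher and 4542 lower, so that 48.8% of calls were rises. With DESeq2 4123 were higher and 4510 lower, and 47.8% of calls were rises.

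The read shares show how much RNA the called genes carried. These genes were chosen on the same libraries, so the shares describe them and test nothing. The 4671 higher genes took 10.5%, 10.2% and 10.1% of assigned reads in 0.5 nM replicates 1 to 3, against 5.15%, 5.01% and 4.57% in control replicates 1 to 3. The 4234 lower genes took 31.0%, 31.6% and 25.6% of assigned reads at 0.5 nM, against 48.0%, 44.5% and 43.7% in the controls. Neither share overlapped between the groups, and replicate 3 had the lowest share of the lower set among the 0.5 nM libraries. The libraries at 0.05 nM had 8.83% to 9.74% of reads in the higher and 32.9% to 33.5% in the lower set.

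The list for the carbon concentrating mechanism had the highest median change of the 17 lists. Of 17 tested loci for bicarbonate transporters and channels, carbonic anhydrases and pyrenoid proteins, 15 were called higher and 1 lower, beside 31.6% higher and 28.7% lower among all genes. The median log2 change was 2.62 or 6.13-fold, beside a median of 0.07 over all genes tested, and 2.03 without 0.5 nM replicate 3. Single loci ran from -0.51 to 5.87. The mean log2 CPM of the list lay 1.99, 2.16 and 2.81 above the control mean in 0.5 nM replicates 1 to 3, against -0.23, 0.26 and -0.03 in control replicates 1 to 3. All 3 libraries at 0.5 nM were far above all controls, and replicate 3 was the highest. Together these loci took 6319, 7003 and 9253 CPM at 0.5 nM, against 2776, 3625 and 3100.5 CPM in the controls. The call of the lower locus was lost without 0.5 nM replicate 1 or 3 or control replicate 2 or 3, and with the 6 libraries of the comparison alone, where 0 loci fell in each case. Photorespiration recycles the product that Rubisco forms with oxygen in place of carbon dioxide. Of 6 such loci 3 rose and 0 fell, beside 31.6% higher among all genes, with a median of 0.29. With the replicate number as a block 5 rose, and with library totals alone 6 did, with a median of 0.58.

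Photoprotection loci rose as well. These code for antenna-related proteins that turn surplus light energy into heat, and all 5 tested loci were higher, beside 31.6% of all genes. The log2 changes ran from 1.13 to 2.21, with a median of 1.47 or 2.77-fold. The median and the largest change came from sparsely read loci. These averaged 2.03 and 1.94 CPM at 0.5 nM, against 0.73 and 0.45 CPM in the controls. The remaining loci rose by 1.13, 1.36 and 1.71, and averaged 228, 332 and 225 CPM at 0.5 nM. With a minimum of 5 CPM, 3 loci were called higher. The summed level of all 5 loci was 692, 789 and 885 CPM in 0.5 nM replicates 1 to 3. It was 250, 370 and 291 CPM in control replicates 1 to 3, without overlap. Some of these genes are close copies of each other, so their reads can be missing from the counts or split between copies. The light-harvesting antenna itself moved little. Of 12 tested antenna loci 0 rose and 1 fell, or 3 fell with the replicate block, and the median log2 change was -0.04, turning to 0.25 with library totals alone, where 5 rose and 0 fell. It was 0.03 without 0.5 nM replicate 1 and -0.20 without 0.5 nM replicate 3. The number of falls stood at 0 without 0.5 nM replicate 1, control replicate 2 or control replicate 3, and at 2 without 0.5 nM replicate 3 or control replicate 1. Only 13 of the 20 recalled antenna numbers were among the identifiers, and many antenna genes have close copies too. The antenna list summed to 13642, 13991 and 17551 CPM at 0.5 nM, against 15258, 16819 and 17430 CPM in the controls, with overlap.

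Carbon fixation and chlorophyll synthesis also showed small changes. Of 9 tested Calvin-Benson cycle loci, which fix carbon dioxide into sugar phosphates, 1 rose and 0 fell, with a median of 0.12, and 6 rose with library totals alone. That median was -0.02 without control replicate 1, near 0 without 0.5 nM replicate 3 and 0.23 without control replicate 3, so its sign rests on single libraries. Of 7 chlorophyll synthesis loci 1 rose and 3 fell, with a median of -0.21 that turned to 0.07 with library totals alone. With the block 2 of them rose, and without 0.5 nM replicate 2 or 3 or control replicate 1 or 2 none did. Over all genes tested, 60.3% were called in either direction, and the Calvin-Benson and antenna lists had 1 call each.

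Nitrogen assimilation loci, for the uptake and reduction of nitrate and the incorporation of ammonium, rose in 4 of 5 cases, beside 31.6% of all genes, and 0 fell. With RLE scaling, with the 6 libraries alone, or without 0.5 nM replicate 2, 0.5 nM replicate 3, control replicate 1 or control replicate 2, the count was 3. The median log2 change was 1.31 and single loci ran from -0.03 to 2.53. The list mean lay 1.16, 1.06 and 1.13 above the control mean in 0.5 nM replicates 1 to 3, against 0.00, 0.13 and -0.13 in control replicates 1 to 3. Every library at 0.5 nM was above every control. In summed CPM the groups differed less, with 1155 to 1278 CPM at 0.5 nM and 936 to 1057 CPM in the controls.

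Heat shock proteins and chaperones, which fold and refold proteins, were lower. All 11 tested loci were called lower, beside 28.7% of all genes, by -2.44 to -0.70, with a median log2 change of -1.46. With library totals alone 8 were called, and without 0.5 nM replicate 3, control replicate 1 or control replicate 3 there were 10. The list mean lay at -1.33, -1.20 and -1.83 in 0.5 nM replicates 1 to 3, against 0.19, -0.02 and -0.18 in control replicates 1 to 3. Their summed level was 1741, 1894 and 1145 CPM at 0.5 nM, against 5195, 4325 and 3767 CPM in the controls. Every library at 0.5 nM was below every control, and replicate 3 was the lowest. The libraries at 0.05 nM, which share the controls, lay at -0.46, -0.48 and -0.75. The mean of this list differed more between the doses than that of any other list. Photoprotection had 1.46 at 0.05 nM and 1.52 at 0.5 nM, nitrogen assimilation 1.03 and 1.12, and the carbon concentrating list 1.89 and 2.32.

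**Figure D3:**
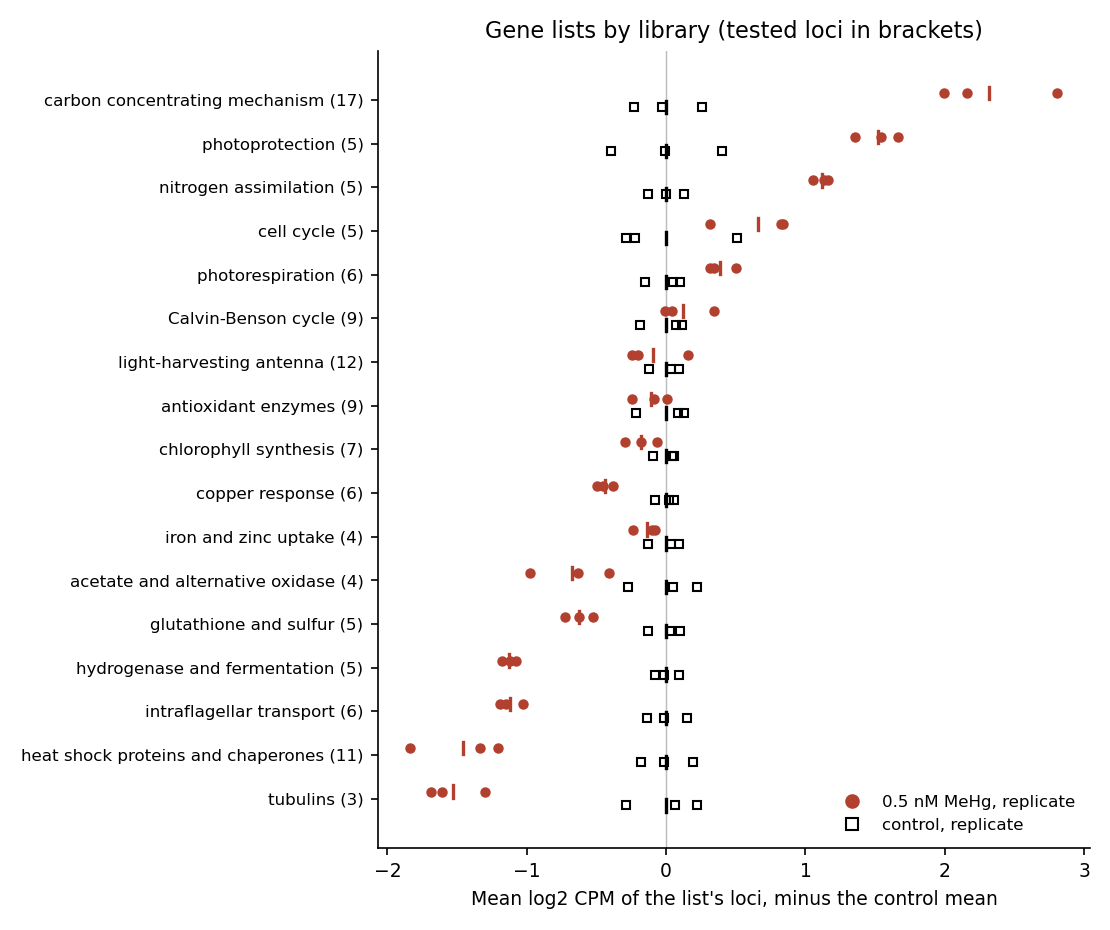
Each point is 1 library: the mean log2 CPM over the tested loci of a list, minus the mean of the 3 controls, with filled circles for 0.5 nM MeHg, open squares for control and a short line at each group's mean. The carbon concentrating list lies 1.99 to 2.81 above the control mean at 0.5 nM and the tubulin list at -1.68 to -1.30, while the antenna and Calvin-Benson libraries of the groups overlap.

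Ciliary loci fell. Tubulins are the building blocks of microtubules in cilia and the cell body, and intraflagellar transport carries ciliary parts along them. All 3 tested tubulin loci were lower, beside 28.7% of all genes, by -1.65 to -1.42. They summed to 9409, 11775 and 8996 CPM in 0.5 nM replicates 1 to 3, against 23433, 30301 and 34108 CPM in control replicates 1 to 3. Every library at 0.5 nM was far below every control. Tubulin genes are close copies of each other, so reads at more than one place may be missing from these sums. All 6 tested intraflagellar transport loci were lower too, by -1.23 to -0.97, beside the same 28.7%. Their list mean was -1.03, -1.15 and -1.19 at 0.5 nM, against 0.15, -0.14 and -0.02 in the controls. In bulk RNA, fewer cells with a transcript and less of it in each cell cannot be told apart. Of 5 cell cycle and DNA replication loci 3 rose and 0 fell, beside 31.6% higher among all genes, with a median of 0.33. The library means overlapped, at 0.82, 0.32 and 0.84 in 0.5 nM replicates 1 to 3, against 0.51, -0.29 and -0.22 in control replicates 1 to 3. Within pairs of like number the differences of these means were 0.31, 0.61 and 1.06. The library medians did not overlap, at 0.43, 0.21 and 0.87 against 0.04, -0.04 and -0.004. For 1 of the loci, with a log2 change of 0.09, the standard error was 1.06. With the block on 9 libraries 4 rose, with a median of 0.47. Without control replicate 1 the median was 0.56.

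Hydrogenase and fermentation loci, which serve energy metabolism without oxygen, were lower throughout. All 5 tested loci fell, beside 28.7% of all genes, by -1.41 to -0.89, with a median log2 change of -1.08. They summed to 2271, 2191 and 2055 CPM in 0.5 nM replicates 1 to 3, against 5151, 4418 and 4833 CPM in control replicates 1 to 3, without overlap. Of 4 loci for acetate use and the alternative oxidase of mitochondria 2 fell and 0 rose, beside the same 28.7%, with a median of -0.51. Their list mean was lowest in replicate 3, at -0.98, beside -0.63 and -0.41 in 0.5 nM replicates 1 and 2, and the controls had -0.28, 0.22 and 0.05.

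Genes most often tied to metals and oxidants did not move as 1 group. The counts in these lists stand beside 31.6% higher and 28.7% lower among all genes. Of 5 loci for glutathione synthesis, glutathione transfer and sulfur uptake, which supply thiols, 4 fell and 0 rose, with a median log2 change of -0.76, and 1 rose with the replicate block. The list summed to 364, 385 and 337 CPM at 0.5 nM, against 633, 692 and 636 CPM in the controls, without overlap. Most of that sum came from loci that averaged 204 and 139 CPM at 0.5 nM. Of 9 antioxidant enzyme loci, for the removal of superoxide and peroxides, 1 rose and 3 fell, a share of falls near that of all genes. The median was -0.05, turning to 0.25 with library totals alone, 0.08 without 0.5 nM replicate 1 and 0.09 without control replicate 3, and it was -0.24 without control replicate 1. With the block 3 of them rose. Without 0.5 nM replicate 3, control replicate 1 or control replicate 3 none did, and without 0.5 nM replicate 1 there were 2. Of 6 copper response loci, which act in copper uptake and in sparing copper, 3 fell and 0 rose, with a median of -0.31. Of 4 tested iron and zinc uptake loci 1 rose and 3 fell, with a median of -0.37, and 1 fell without 0.5 nM replicate 1 or without control replicate 2. Another 2 uptake loci had at most 4 reads in any library and were not tested.

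**Figure D4:**
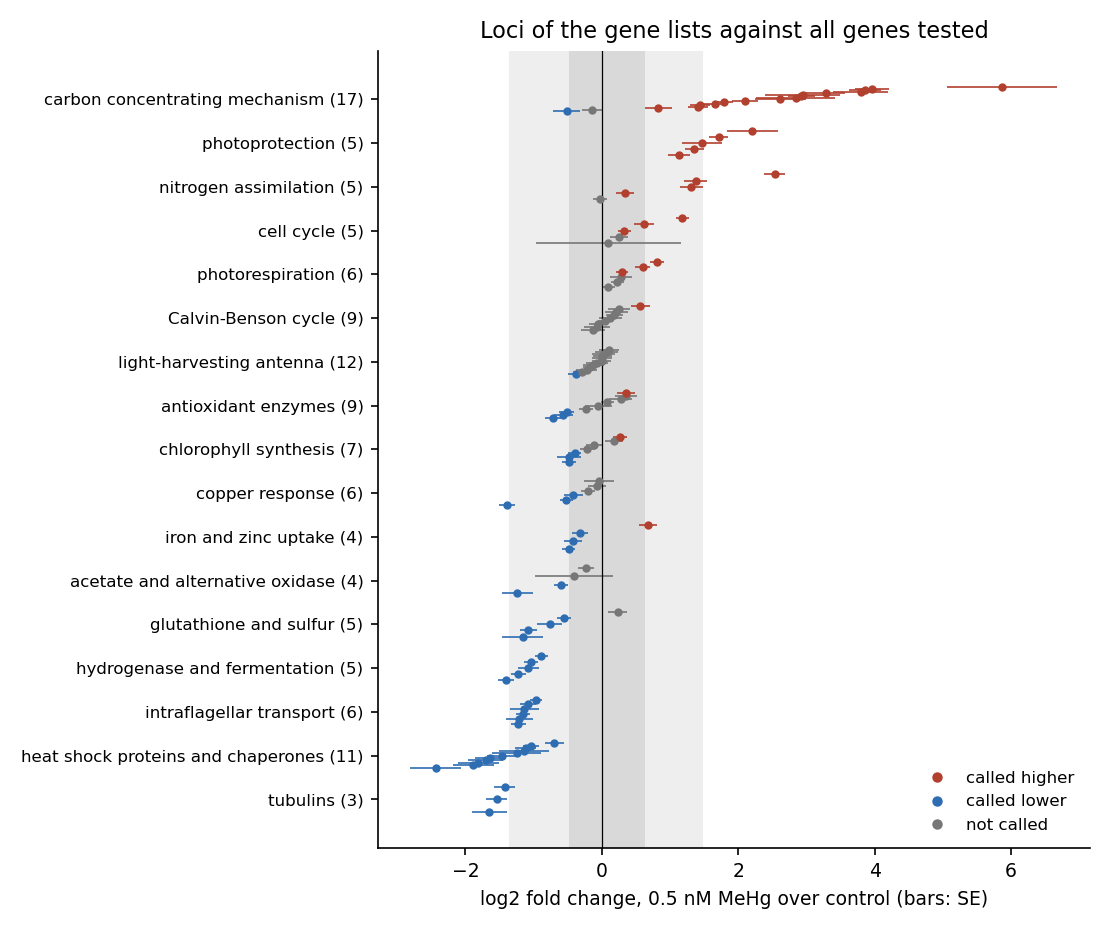
Each point is 1 tested locus of a list with its log2 fold change at 0.5 nM MeHg over control and its standard error, coloured by the call. Dark and light grey bands mark the middle 50% and the middle 90% of all genes tested, -0.46 to 0.62 and -1.35 to 1.47. The tubulin loci and most carbon concentrating loci lie outside the light band.

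The identifiers with the strongest changes are given with their reads in each library. They are the 2 with the largest rise and the 2 with the largest fall among called genes that averaged 1 CPM or more and did not overlap between groups. Cre03.g162800 had 693, 539 and 1903 reads in 0.5 nM replicates 1 to 3, against 18, 15 and 15 in control replicates 1 to 3. That is 29.9, 27.3 and 126.9 CPM at 0.5 nM, against 0.934, 1.13 and 1.08 CPM in the controls, and replicate 3 had the highest level by far. The log2 change came to 5.87 ± 0.812 (SE, with edgeR's adjusted p = 0.000458) and 4.77 without 0.5 nM replicate 3. This identifier is also among the listed loci above, so the 5.87 given there is the same observation. The identifier g4485 had 62.4, 54.1 and 115.4 CPM at 0.5 nM, against 2.80, 4.37 and 3.17 CPM in the controls, which is 4.50 ± 0.323 on the log2 scale (SE, edgeR's adjusted p = 1.81e-06). Replicate 3 was again the highest, and the lowest library at 0.5 nM had 12.4 times the CPM of the highest control.

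Among the lower identifiers, g12152 had 2, 5 and 4 reads in 0.5 nM replicates 1 to 3, against 64, 24 and 25 in control replicates 1 to 3, so its level at 0.5 nM rests on few reads. The log2 change came to -3.58 ± 0.424 (SE, with edgeR's adjusted p = 2.49e-05). Cre08.g364550 rests on many more reads, with 168, 153 and 73 at 0.5 nM against 1768, 1113 and 888 in the controls. Its level was 7.25, 7.75 and 4.87 CPM at 0.5 nM, against 91.8, 83.8 and 64.0 CPM in the controls, which is -3.58 ± 0.216 on the log2 scale (SE, edgeR's adjusted p = 5.6e-07). Replicate 3 was the lowest of the libraries at 0.5 nM, and the lowest control had 8.26 times the CPM of the highest library at 0.5 nM. The authors' deposited table gives signed fold ratios of 58.3 for Cre03.g162800, 22.5 for g4485, -11.8 for g12152 and -12 for Cre08.g364550, where a negative value means lower at 0.5 nM.

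**Figure D5:**
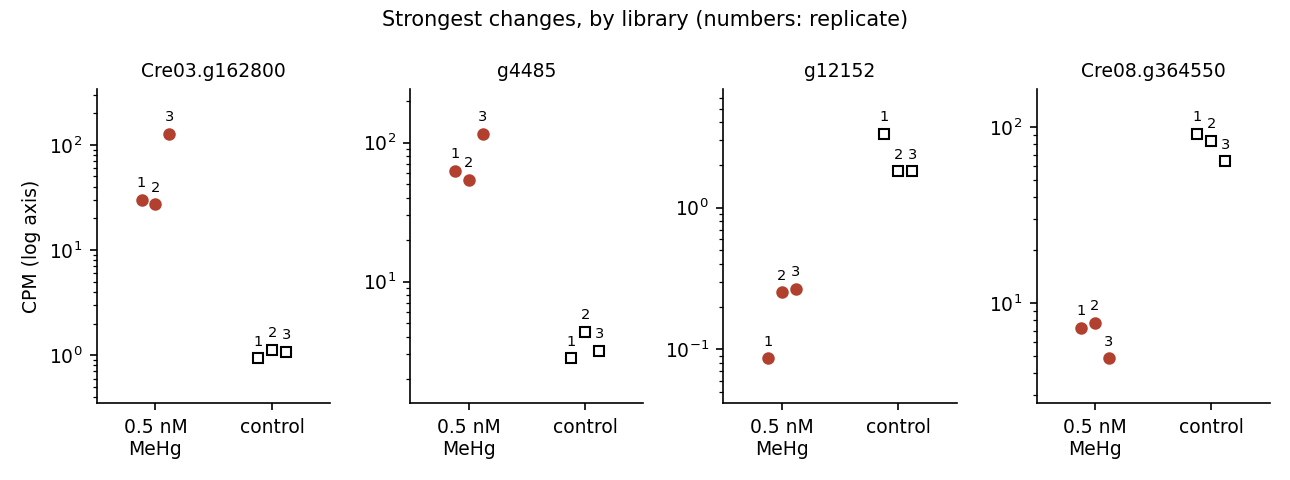
CPM on a log axis for the 4 identifiers with the strongest changes, by library, with filled circles for 0.5 nM MeHg and open squares for control; the numbers are replicates. No library at 0.5 nM overlaps a control, and replicate 3 at 0.5 nM is the highest for Cre03.g162800 and g4485 and the lowest for Cre08.g364550.

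Near-silent genes were found on one side only by the rule used. The rule takes reads that are not scaled to library size, so a deeper library meets the minimum of 10 more easily. A set of 17 genes had at most 3 reads in every control and at least 10 reads in every library at 0.5 nM, and 0 genes met the reverse rule. The read counts in the 0.5 nM libraries stayed low, with a median of 15 and a highest value of 39. In the 0.05 nM libraries 7 of the 17 had at least 10 reads in each library, and 0 had at most 3 in every library. No gene had 0 reads in every control together with at least 10 in every library at 0.5 nM.

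The calls were spread over the genome. By the number that follows Cre in the identifier, the share of tested genes called higher ran from 29.1% to 35.8% over 17 classes and the share called lower from 26.3% to 37.7%. Identifiers with g numbers, which carry no such class, were called higher in 28.3% and lower in 27.2% of cases. The gene order of the RefSeq version 5.5 assembly covered 10769 tested genes, and in 3254 neighbouring pairs both genes were called, 57.8% of them in the same direction. The share was 53.0% for called genes 2 loci apart, 49.6% for 5 loci, 50.3% for 20 loci and 49.6% for 100 loci. Neighbours that overlap can share reads, and the part of this was not tested. The longest runs of neighbours called in 1 direction held 8 genes, 1 run higher on chromosome 3, with a median log2 change of 0.91, and 1 run lower on chromosome 17, with a median of -1.16.

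The authors' deposited table, which holds their own test of this comparison, called 4514 identifiers higher (25.4% of all 17737) and 4101 lower (23.1%) at an FDR-corrected p under 0.05. Of the genes called higher by edgeR here, 93.3% were also higher in the authors' deposited table, as were 96.5% of its list the other way round. For lower genes the shares were 94.8% and 97.9%, and 0 genes were called in opposite directions. Both sets come from the same counts, so the overlap compares tests and not experiments.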

How the data were processed

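The authors deposited counts of reads per gene for each library. The submitters' processing notes name TopHat2 and HTSeq. Their versions, the genome build, the annotation and the strand setting were "not given in the sources used here", and overlapping genes may share reads. The labels describe TRI Reagent extraction and a stranded mRNA kit, and only those of the 0.05 nM libraries name a sequencer. Unassigned categories of the count files were left out. In the 6 libraries compared, 1.02% to 1.24% of reads lay outside gene models and 0.264% to 0.331% were ambiguous. The authors' deposited series table also holds their p-values and a signed fold ratio, a score that is negative for falls.

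The analysis used R 4.3.3 and edgeR 4.0.16, with DESeq2 1.42.0 as an alternative. After filterByExpr and TMM scaling, a robust quasi-likelihood model of group was fitted to all 9 libraries, with 6 residual degrees of freedom. Tests were two-sided, adjusted by Benjamini-Hochberg over 14778 genes, and called at 0.05. Standard errors were the log2 change divided by the root of F. Log2 CPM used a prior count of 2. On simulated counts the share of false calls was above the nominal level. Far fewer genes were changed there than were called here, so that share cannot be carried over to these calls.

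The labels number the replicates but state no pairing, and the main model held no term for the number. Deviations from the group means correlated at 0.79, 0.47 and 0.23 between the 0.5 nM and control libraries numbered 1, 2 and 3. Numbers 2 and 3 are less clearly set apart: 0.5 nM replicate 2 correlated at 0.41 with control replicate 3, and 0.05 nM replicate 2 at 0.60 with control replicate 3, against 0.50 with control replicate 2. Members, lists and tests were chosen with earlier results of these data known. Lists by protein signature or product word gave no result, since the gene table used here holds neither. By the naming rule, with no annotation, 2 identifiers per direction were printed, those of largest change among called genes averaging 1 CPM or more over the 6 libraries without overlap. Alternatives were other tools, scalings, filters, fits on 6 libraries, the replicate block and leaving out each library.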

Additional observations from a re-analysis of the deposited data

How the results depend on the processing

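The 4 identifiers kept their direction and their call under each of the 14 alternatives in which they were tested. Only g12152 was left out of one of them, the minimum of 5 CPM. Leaving out 1 library at a time gave 4163 to 4704 higher and 3949 to 4260 lower genes. The replicate block gave 5427 higher and 4853 lower genes, and it changed no list count by over 1.5 times other than those given here.

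Library totals alone gave 2557 lower genes, with 3163 higher and 823 lower by at least 1 on the log2 scale. List medians turned positive for antioxidants (0.25), the antenna (0.25) and chlorophyll synthesis (0.073). Other medians under library totals were 2.87 for the carbon concentrating list, -1.15 for heat shock, 0.61 for the cell cycle, 1.76 for photoprotection, 0.58 for photorespiration, -1.23 for tubulins, -0.86 for intraflagellar transport, -0.48 for glutathione and sulfur, 1.6 for nitrogen, -0.073 for iron and zinc, -0.018 for copper, -0.79 for hydrogenase and fermentation, -0.21 for acetate and 0.42 for the Calvin-Benson cycle. Counts under library totals were 8 lower heat shock loci, 0 lower in the carbon concentrating list, 6 higher in photorespiration, 4 higher and 1 lower among antioxidants, 1 higher and 2 lower for glutathione, 0 lower for iron and zinc, 1 lower for copper, 6 higher in the Calvin-Benson list, 5 higher and 0 lower in the antenna and 2 higher and 0 lower in chlorophyll synthesis.

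A minimum of 5 CPM gave 956 genes higher and 1050 lower by at least 1, with 10703 genes tested in place of 14778. It left 0 lower carbon concentrating loci, 3 higher photoprotection, 6 higher photorespiration (median 0.43), 2 higher antioxidant, 1 higher and 2 lower glutathione (median -0.41), 1 lower iron and zinc (median -0.23), 2 higher Calvin-Benson and 0 lower antenna loci. Medians were -1.01 for intraflagellar transport, -0.94 for hydrogenase and -0.070 for chlorophyll synthesis, and turned positive for antioxidants (0.095) and the antenna (0.11). Single identifiers also lay higher, Cre03.g162800 at 6.02 in place of 5.87, g4485 at 4.65 in place of 4.50 and Cre08.g364550 at -3.44 in place of -3.58. Libraries were scaled anew after the filter, and the part of this was not tested.

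The 6 libraries alone gave 0 lower carbon concentrating, 0 higher antioxidant, 0 lower antenna and 0 higher chlorophyll loci. The replicate block on 9 libraries gave 5 higher photorespiration, 3 higher antioxidant, 1 higher glutathione, 3 lower antenna and 2 higher chlorophyll loci; on 6 libraries it gave 5, 3 and, for the antenna, 2. DESeq2 gave medians of -0.81 for glutathione and -1.13 for hydrogenase, 3 lower antenna and 0 higher chlorophyll loci. RLE scaling gave -0.81 and -1.13 for these medians, 0 higher antioxidant, 2 lower antenna and 0 higher chlorophyll loci. The median over all genes tested was 0.02 with DESeq2 and with RLE scaling, in place of 0.07. The cause was not tested.

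With 1 library left out, ranges were 0 to 1 lower carbon concentrating, 0 to 2 higher antioxidant, 1 to 3 lower iron and zinc, 0 to 2 lower antenna and 0 to 1 higher chlorophyll loci. Medians ran from -1.24 to -1.03 for intraflagellar transport, -0.92 to -0.62 for glutathione, -0.45 to -0.29 for iron and zinc, -1.16 to -1.05 for hydrogenase, -0.31 to -0.14 for chlorophyll synthesis, 0.24 to 0.56 for the cell cycle, -0.20 to 0.03 for the antenna, -0.24 to 0.09 for antioxidants and -0.02 to 0.23 for the Calvin-Benson cycle. Depth limits g12152, which had at most 5 reads in a library at 0.5 nM, and the near-silent genes.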
